A study of Homo sapiens with 4 samples.

Results

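The E2F and DP transcription factors were the 10 genes named E2F1 to E2F8, TFDP1 and TFDP2, picked by symbol from the 26364 genes listed for each sample. Levels are in RPKM, that is, reads per kilobase of gene scaled by the total reads of the sample, and all 10 genes had a mean of at least 1 RPKM and were tested. The cells were BE(2)C, a clonal human neuroblastoma line with MYCN amplification, and total RNA was sequenced in 2 groups of 2 samples. Ctrl cells were transfected with non-targeting siRNA and MYCN KD cells with siRNA against MYCN, with a lipid reagent for 6 h at 80 nM by the sample labels (the methods of the study give a lower final concentration), and RNA was taken on the following day. Both groups therefore carried the amplified MYCN locus and a transfected siRNA, the labels call the genotypes wild type and MYCN kd, and no untransfected sample was analysed here.

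E2F proteins bind DNA together with a DP partner and switch the genes of DNA synthesis and cell division on or off. E2F1, E2F2 and E2F3 are the activators, which the retinoblastoma protein holds until cyclin-dependent kinases release them. E2F4 and E2F5 recruit the related pocket proteins p107 and p130 in resting cells, E2F6 works with a Polycomb complex, and E2F7 and E2F8 repress without a DP partner. MYCN, the amplified oncogene of these cells, and the activator E2Fs share many target genes of the cell cycle.

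The stretches before the starts of E2F1, E2F2 and E2F3 are shown because they hold words of the E2F motif themselves, and those of E2F4 and E2F6 because they are set against them below. Each runs 5′ to 3′ on the strand of the gene over the 250 bases before its start, from RefSeq on GRCh38.p14, and capitals mark an E2F word. The words searched on either strand were TTTCCCG, then TTTCGCG, also TTTGCCG, and lastly TTTGGCG. The positions are chr20:33686386-33686635 (minus strand) for E2F1, chr1:23531234-23531483 (minus strand) for E2F2, chr6:20401629-20401878 (plus strand) for the upstream start of E2F3, chr16:67191905-67192154 (plus strand) for E2F4 and chr2:11466162-11466411 (minus strand) for E2F6.
E2F1: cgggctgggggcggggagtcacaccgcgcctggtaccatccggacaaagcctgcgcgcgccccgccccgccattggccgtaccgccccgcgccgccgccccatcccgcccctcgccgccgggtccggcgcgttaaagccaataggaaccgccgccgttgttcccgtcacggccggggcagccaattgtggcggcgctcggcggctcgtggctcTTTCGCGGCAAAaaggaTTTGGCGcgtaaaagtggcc
E2F2: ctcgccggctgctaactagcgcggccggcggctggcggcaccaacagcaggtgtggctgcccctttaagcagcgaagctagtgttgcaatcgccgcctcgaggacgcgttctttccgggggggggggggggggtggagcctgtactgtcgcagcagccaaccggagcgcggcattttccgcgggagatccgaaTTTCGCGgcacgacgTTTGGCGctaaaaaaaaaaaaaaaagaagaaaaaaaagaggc
E2F3: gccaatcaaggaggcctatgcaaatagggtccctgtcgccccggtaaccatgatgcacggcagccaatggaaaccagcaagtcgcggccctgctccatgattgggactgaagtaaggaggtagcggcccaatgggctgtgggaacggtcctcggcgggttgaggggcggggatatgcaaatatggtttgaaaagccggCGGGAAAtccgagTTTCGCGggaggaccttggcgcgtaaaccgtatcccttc
E2F4: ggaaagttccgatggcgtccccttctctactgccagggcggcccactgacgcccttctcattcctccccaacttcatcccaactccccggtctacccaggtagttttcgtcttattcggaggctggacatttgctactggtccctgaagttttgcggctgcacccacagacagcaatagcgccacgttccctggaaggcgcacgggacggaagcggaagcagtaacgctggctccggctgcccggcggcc
E2F6: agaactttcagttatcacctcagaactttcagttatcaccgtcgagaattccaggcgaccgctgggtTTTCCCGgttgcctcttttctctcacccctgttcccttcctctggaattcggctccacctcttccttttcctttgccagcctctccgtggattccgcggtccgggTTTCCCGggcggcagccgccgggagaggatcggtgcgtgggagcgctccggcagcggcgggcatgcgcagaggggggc

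E2F1 held 3 words, of which the first on the gene strand and the one on the other strand overlap, and all lay within 37 bases of the start. E2F2 held 2 words within 57 bases and the upstream start of E2F3 held 2 within 52 bases. E2F6 also held 2, but up to 183 bases away, and TFDP1 held 1, on the other strand, 119 bases away. E2F4, E2F7 and the 3 starts of TFDP2 held none of these words. Windows were found for 8 of the 10 members (11 windows), of which 45.5% held a word and 36.4% at least 2. Of all 35116 windows of that length, 7.33% held a word and 0.496% at least 2. The E-box CACGTG, the site of MYC proteins, occurred in 1 window, that of the downstream start of E2F3, and in 6.34% of all windows. These matches are a description of letters, and binding was not measured in these samples.

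**Figure D1:**
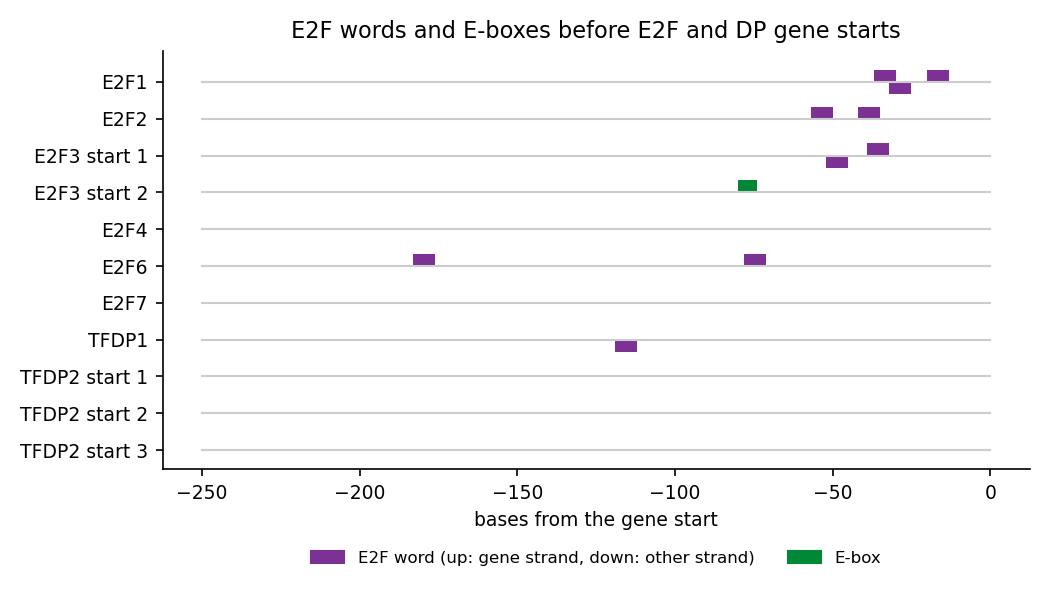
Position of each E2F word and E-box in the 250 bases before 11 starts of 8 E2F and DP genes, with the distance from the start in bases on the horizontal axis. The words of E2F1, E2F2 and the upstream start of E2F3 crowd within 57 bases of the start, while those of E2F6 and TFDP1 lie farther out.

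The targeted gene was lower in the samples labelled MYCN KD. MYCN stood at 1068 and 1073 RPKM in Ctrl against 720 and 718 RPKM in MYCN KD (log2 fold change -0.57, SE 0.029, limma adjusted p = 0.00361). Over all genes tested, 22.8% were lower and 25.3% higher at an adjusted p under 0.05. The totals of reads behind the RPKM values ran from 29055819 to 34142988. Neuroblastoma markers were high in every sample, with PHOX2A at 246 to 523 RPKM, HAND2 at 209 to 324, GATA3 at 63.4 to 79.6, ISL1 at 23.8 to 33.4, DBH at 390 to 865 and TH at 191 to 253. Of these, PHOX2A, HAND2, ISL1 and DBH were called higher in MYCN KD. Markers of other cells were low, with HBB at 0 throughout, PTPRC, CD3E, COL1A2 and CDH1 at 0.0286 RPKM or less, and EPCAM and KRT18 at 0.484 RPKM or less. The exceptions were LUM (6.64 to 8.19 RPKM), DCN (4.58 to 9.33 RPKM), CD68 (3.45 to 11.5 RPKM), COL1A1 (0.726 to 1.78 RPKM) and KRT8 (0.504 to 1.28 RPKM), of which CD68, DCN and COL1A1 were called higher in MYCN KD. The summed level of the 4 fibroblast markers was 12.1 and 14.5 RPKM in Ctrl against 19.1 and 16.2 RPKM in MYCN KD, that of the 4 blood cell markers 4.26 and 3.46 against 9.43 and 11.5 RPKM, and that of the 4 epithelial markers 1.07 and 1.02 against 2.04 and 1.97 RPKM. Their part in the results was not tested.

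The question was how the family as a whole, and its activators against its repressors, stood after MYCN knockdown. Of the 10 members, 7 fell and 0 rose in limma, where 0 were also higher at an unadjusted p under 0.05 and 0 with limma voom on the recovered reads. E2F5 fell most, to 0.335 times its mean Ctrl level, followed by TFDP1 (0.610), E2F2 (0.622), E2F4 (0.656), E2F8 (0.665), E2F3 (0.677) and E2F1 (0.831). E2F6, E2F7 and TFDP2 did not pass the test, and their groups overlapped. Against the 7 of 10 stood a background of 22.8% of all genes called lower, and the median log2 fold change was -0.49 over the members and 0.03 over all 11411 genes tested. In each of the 7 that fell, the higher MYCN KD sample lay under the lower Ctrl sample, which was so for 35.8% of all genes, and 0 members showed the opposite, which 40.4% of all genes did. RPKM is relative to the RNA sequenced, so fewer cells of a type and less RNA per cell cannot be told apart.

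**Figure D2:**
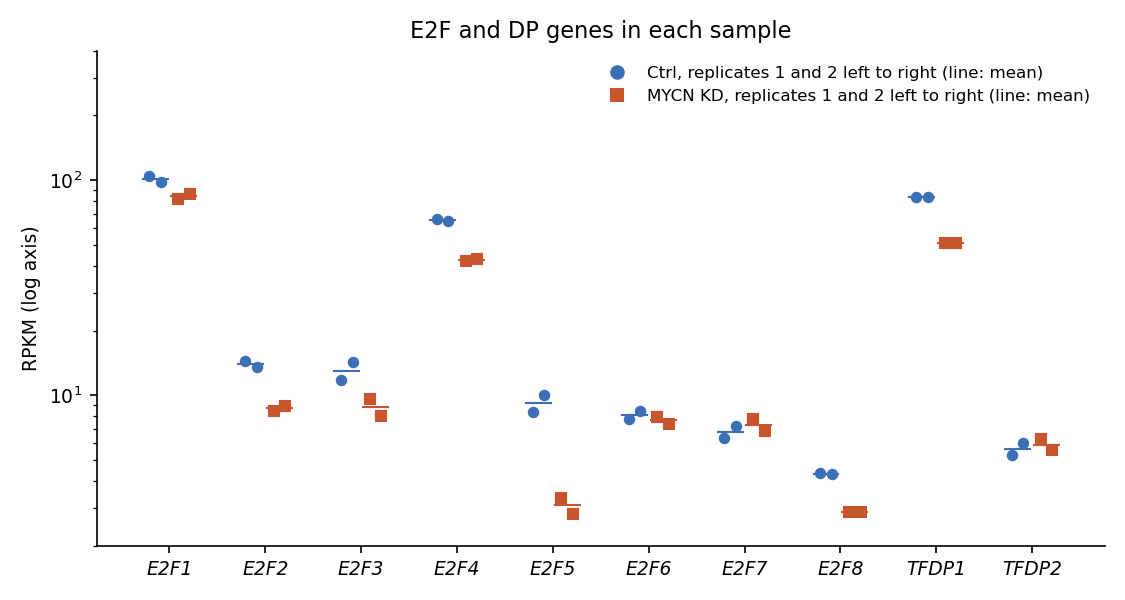
RPKM of each E2F and DP gene on a log axis in 2 Ctrl samples (circles) and 2 MYCN KD samples (squares), with a line at each mean. E2F1, TFDP1 and E2F4 stand far above the other 7 genes in both groups, and the groups overlap for E2F6, E2F7 and TFDP2 alone.

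E2F1, the activator best known for driving S phase entry and, in excess, apoptosis, is a gene of 7 exons on the minus strand of chromosome 20 (GRCh37, 32263283 to 32274191). Its level was 104 and 98.6 RPKM in Ctrl against 82.0 and 86.7 RPKM in MYCN KD. Both MYCN KD samples were below both Ctrl samples, and as a ratio of the lower Ctrl to the higher MYCN KD sample the gap was smaller than in the other members that fell. This gave a log2 fold change of -0.26 (SE 0.052, limma adjusted p = 0.0277). This call was lost without Ctrl replicate 1 (-0.22, adjusted p = 0.109) and without MYCN KD replicate 1 (-0.22, adjusted p = 0.121).

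E2F2, which shares the activator role and is held by the retinoblastoma protein in the same way, is on the minus strand of chromosome 1 (23832930 to 23857725). Its level was 14.4 and 13.6 RPKM in Ctrl against 8.46 and 8.96 RPKM in MYCN KD. The groups were well apart, and the log2 fold change was -0.63 (SE 0.055, limma adjusted p = 0.00621).

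E2F3, the third activator, on the plus strand of chromosome 6 (20402110 to 20493945), is read from the 2 starts described above, which the values per gene do not separate. The samples gave 11.8 and 14.2 RPKM in Ctrl against 9.59 and 8.04 RPKM in MYCN KD. On the log2 scale its samples varied more within each group than those of the other activators, and the groups did not overlap. This gave a log2 fold change of -0.51 (SE 0.13, limma adjusted p = 0.0483), close to the threshold. The call was lost when the samples were scaled to equal sums of RPKM (-0.46, adjusted p = 0.0810) and when low genes were kept (adjusted p = 0.0753).

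E2F4, the main E2F of resting cells and a partner of p130 in the DREAM repressor, is on the plus strand of chromosome 16 (67226058 to 67232821). It stood at 65.9 and 64.3 RPKM in Ctrl against 42.2 and 43.2 RPKM in MYCN KD. Replicates lay close together here, and the log2 fold change was -0.60 (SE 0.036, limma adjusted p = 0.00422).

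E2F5, the close relative of E2F4 that binds p130 and lies on chromosome 8, was the member that changed most. Its level was 8.36 and 10.0 RPKM in Ctrl against 3.34 and 2.82 RPKM in MYCN KD, so that the lowest Ctrl sample was still well above the highest MYCN KD sample. This gave a log2 fold change of -1.32 (SE 0.12, limma adjusted p = 0.00646), and its 95% interval of -1.67 to -0.97 did not reach that of any other member. These values rest on few reads. The fewest that fit the RPKM values are 265 and 297 in Ctrl against 90 and 81 in MYCN KD. RPKM came from the authors' normalized counts, so these are normalized reads and not raw reads. Exact 95% Poisson intervals at these numbers ran from 234 to 299 for the lowest Ctrl sample and from 72.4 to 111 for the highest MYCN KD sample. They cover counting error only, and treat normalized reads as if they were raw, so they are approximate. If the counted length of the gene is a multiple of the length fitted, the reads are more by the same factor and the intervals relatively narrower. C8orf59, now named RBIS, is read from the opposite strand and overlaps E2F5 over 3105 bases, and where strand is not used their reads cannot be told apart there. It stood at 17.7 and 16.4 RPKM in Ctrl against 16.6 and 17.9 RPKM in MYCN KD (log2 fold change 0.01, limma adjusted p = 0.878).

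E2F6, which acts without pocket proteins and recruits a Polycomb complex, is on the minus strand of chromosome 2 (11584501 to 11606303). The samples gave 7.78 and 8.46 RPKM in Ctrl against 7.95 and 7.34 RPKM in MYCN KD. The groups overlapped, with a log2 fold change of -0.08 and a 95% interval from -0.28 to 0.12 (limma adjusted p = 0.403). E2F6 has 4 processed pseudogenes in the annotation, with which reads could be shared, and 3 are annotated for TFDP1, 2 for E2F3 and 1 for E2F4.

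The atypical members E2F7 and E2F8 form dimers with each other and curb E2F1 and other S phase genes. E2F7, on chromosome 12 (77415028 to 77459349), stood at 6.35 and 7.22 RPKM in Ctrl against 7.77 and 6.86 RPKM in MYCN KD. Its groups overlapped, with a log2 fold change of 0.09 and a 95% interval from -0.18 to 0.37 (limma adjusted p = 0.448). E2F8, on chromosome 11 (19245610 to 19263167), stood at 4.34 and 4.32 RPKM in Ctrl against 2.87 and 2.88 RPKM in MYCN KD. Its replicates were almost equal, and the log2 fold change was -0.46 (SE 0.038, limma adjusted p = 0.00574). Counting error is wider than this gap between replicates. At the fewest normalized reads that fit, 331 in MYCN KD replicate 1, the 95% Poisson interval ran from about 296 to 369. A noncoding RNA of the opposite strand, CSRP3-AS1, spans the whole of E2F8 in the annotation.

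TFDP1 encodes DP1, the most widely used partner of E2F1 to E2F6, and is on the plus strand of chromosome 13 (114239036 to 114295788). Its level was 83.9 and 84.0 RPKM in Ctrl against 51.2 RPKM in both MYCN KD samples. With replicates this close, the log2 fold change of -0.70 had an SE of 0.031 (limma adjusted p = 0.00359). TFDP2, which encodes the second DP partner and is on chromosome 3 (141663270 to 141868386), stood at 5.30 and 6.00 RPKM in Ctrl against 6.25 and 5.54 RPKM in MYCN KD. The groups overlapped (log2 fold change 0.05, 95% interval -0.21 to 0.31, limma adjusted p = 0.658), and the sign turned with quantile normalization (-0.01) and without Ctrl replicate 1 or MYCN KD replicate 1 (-0.02 each). TFDP3, a further DP gene, was listed with 1 normalized read in MYCN KD replicate 1 and none in the other samples.

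**Figure D3:**
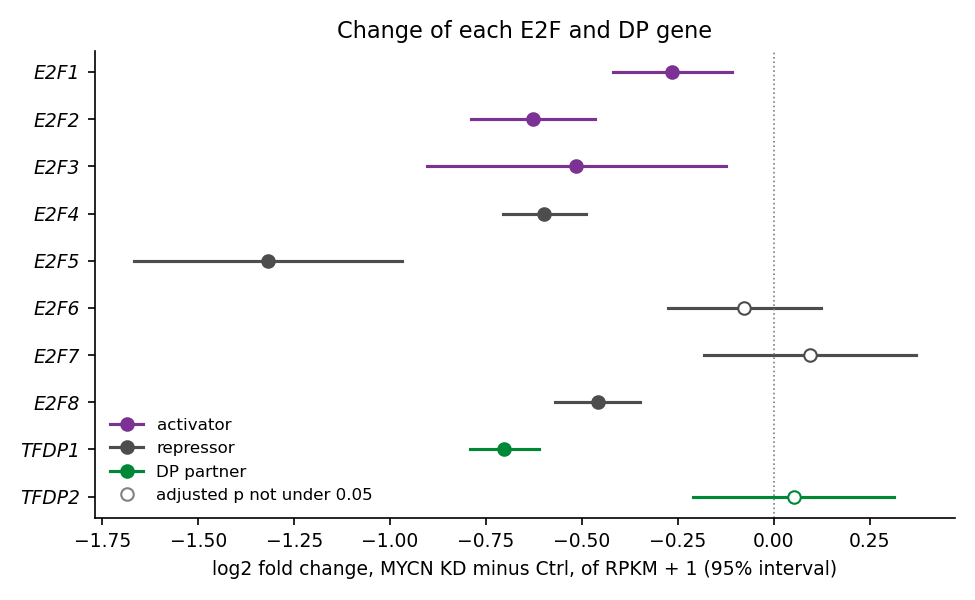
Log2 fold change of RPKM + 1 between MYCN KD and Ctrl for each E2F and DP gene, with its 95% interval from limma and the role of the gene in colour. Filled points are the 7 genes that fell at an adjusted p under 0.05, E2F5 lies farthest to the left at -1.32, and the intervals of E2F6, E2F7 and TFDP2 (open points) include 0.

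Activators and repressors were then set against each other. All 3 activators fell, with a median log2 fold change of -0.51. Of the 5 repressors 3 fell (E2F4, E2F5 and E2F8), with a median of -0.46 and a range from -1.32 to 0.09. Of all genes tested 22.8% were called lower, and their median was 0.03. The calls of E2F1 and E2F3 were lost under some alternatives, while those of the activator E2F2 and of E2F4, E2F5 and E2F8 held wherever they were tested. The mean log2(RPKM + 1) of the activators minus that of the repressors was 1.24 and 1.18 in Ctrl against 1.18 and 1.24 in MYCN KD. The groups overlapped, and the change of this difference was 0.0026, against an SD between replicates of 0.042. No p is given for it, because members are not replicates.

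Sums of RPKM follow the most abundant genes. The 8 E2F genes together had 223 and 221 RPKM in Ctrl against 164 and 167 RPKM in MYCN KD. The activators summed to 1.41 and 1.34 times the repressors in Ctrl and to 1.56 and 1.64 times in MYCN KD. E2F1 alone made up 46.7% and 44.7% of the E2F sum in Ctrl against 49.96% and 52.0% in MYCN KD, whereas the share of E2F4 went from 29.5% and 29.1% to 25.7% and 25.9%. E2F5 went from 3.74% and 4.53% to 2.03% and 1.69%. The level of E2F1 was thus 1.58 and 1.53 times that of E2F4 in Ctrl against 1.95 and 2.01 times in MYCN KD, and that of E2F4 was 7.88 and 6.43 times that of E2F5 in Ctrl against 12.6 and 15.3 times in MYCN KD. Among the DP partners, TFDP1 stood at 15.8 and 14.0 times TFDP2 in Ctrl and at 8.19 and 9.25 times in MYCN KD. None of these ratios overlapped between the groups, and they were not tested. Groups apart were common among single genes, with 35.8% of all genes apart on the low side and 40.4% on the high side.

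**Figure D4:**
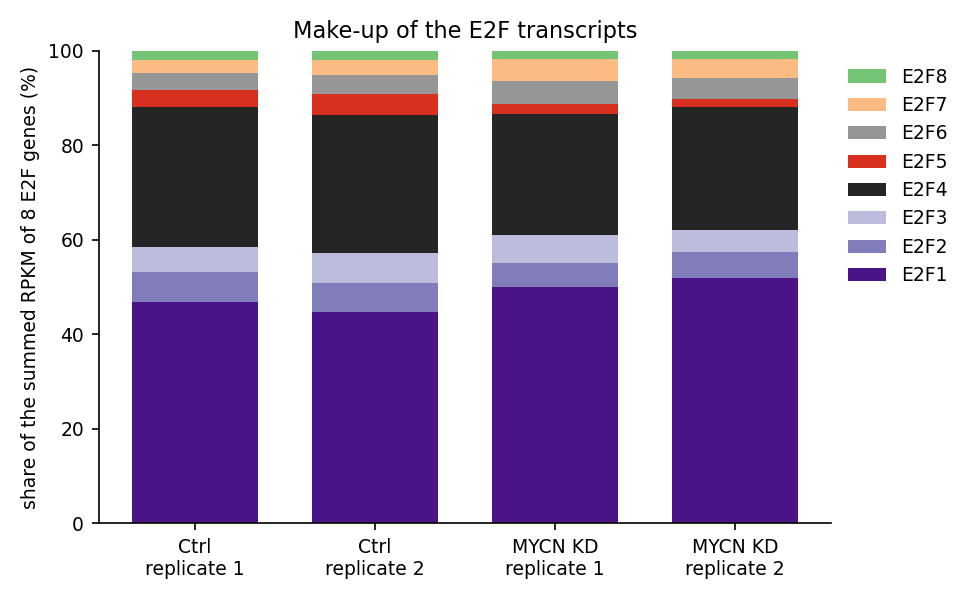
Share of each of 8 E2F genes in their summed RPKM, in percent, in 2 Ctrl and 2 MYCN KD samples. E2F1 takes from 44.7% to 46.7% in Ctrl and from 49.96% to 52.0% in MYCN KD, while the bands of E2F4 and E2F5 are narrower in MYCN KD.

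By level, E2F1 came first in both groups, followed by TFDP1 and E2F4, each apart from the next beyond the spread of its samples. In Ctrl the order went on with E2F2, E2F3, E2F5, E2F6, E2F7, TFDP2 and E2F8. The neighbours E2F2 and E2F3, and E2F5 and E2F6, were not separate there. In MYCN KD E2F5 dropped from rank 6 to rank 9, where its samples overlapped those of E2F8, and E2F6, E2F7 and TFDP2 ranked above it, the samples of E2F6 and E2F7 overlapping each other.

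The 3 genes whose values over the 4 samples were most like those of E2F5, by the Euclidean distance of log2(RPKM + 1) after centring each gene, were PPTC7 (distance 0.0847), SNORD36C (0.0886) and SERINC5 (0.106). PPTC7, a phosphatase gene, stood at 8.71 and 9.83 RPKM in Ctrl against 3.44 and 3.08 RPKM in MYCN KD. The distance rests on 4 samples only. No member rose past the threshold, so no such genes are given for a rise.

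The counts over the lists of regulators and partners that follow stand beside 22.8% of all genes called lower and 25.3% called higher. Of the pocket proteins, which hold the E2Fs, RB1 stood at 15.5 and 19.4 RPKM in Ctrl against 28.2 and 22.7 RPKM in MYCN KD (log2 fold change 0.52, limma adjusted p = 0.0787) and did not pass. RBL1 and RBL2, the genes of p107 and p130, had log2 fold changes of -0.15 and -0.12, with overlapping groups, so that 0 of 3 passed with limma or limma voom, and 1 of 3, RB1, had an unadjusted p under 0.05. Of the cyclins and kinases that phosphorylate the pocket proteins, 2 of 7 tested fell (28.6%, near the 22.8% of all genes), CDK4 (from 295 and 284 RPKM to 202 and 211 RPKM, log2 fold change -0.48) and CCNE1 (-0.57). CCND1 came closest, with a log2 fold change of 0.15 (limma adjusted p = 0.0506), CCND3 of 0.17, CDK2 of -0.14, CDK6 of -0.19 and CCNE2 of -0.05, none past the threshold, and CCND2 lay below the filter. The ligase subunits that act on E2F proteins, SKP2 (0.12), CCNF (-0.17) and FZR1 (0.25), did not pass either in limma or limma voom, and 2 of the 3 had an unadjusted p under 0.05.

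Partners in repressor complexes changed in both directions, against 22.8% of all genes lower and 25.3% higher. In the MuvB core of DREAM, RBBP4 (-0.44) and LIN52 (-0.29) fell, LIN37 (0.54) and LIN54 (0.48) rose, and LIN9 (-0.23) did not pass. FOXM1 and MYBL2, which replace the E2F part of the complex when cells divide, did not pass, with 154 and 144 RPKM in Ctrl against 141 and 151 RPKM in MYCN KD for FOXM1, and 294 and 265 against 262 and 290 RPKM for MYBL2. Their log2 fold changes were -0.03 and -0.02 (limma adjusted p = 0.747 and 0.876). Of the 9 tested partners of E2F6 in its Polycomb complex, 4 fell and 1 rose. PCGF6, the subunit that defines the complex, fell by 0.80 on the log2 scale, MAX, the partner of MYC proteins, by 0.48, WDR5 by 0.35 and MGA by 0.29. RYBP rose from 17.3 and 20.4 RPKM to 39.7 and 33.8 RPKM (0.93, limma adjusted p = 0.0129). L3MBTL2 (-0.25), CBX3 (-0.30), RNF2 (-0.11) and YAF2 (-0.01) did not pass, and RING1 was listed at 0.0066 RPKM or less.

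Most of the classical G1/S targets of the activators were lower. Of 41 G1/S genes listed as E2F targets, all tested, 30 (73.2%) were lower and 0 higher at an adjusted p under 0.05 in limma. In 36 of the 41 the groups did not overlap on the low side, against 35.8% of all genes. The median log2 fold change was -0.48. PCNA, the sliding clamp of DNA polymerase, fell most, from 142 and 205 RPKM to 89.1 and 62.6 RPKM (-1.18, SE 0.28, limma adjusted p = 0.0400). UNG, a uracil-DNA glycosylase, fell from 85.3 and 83.6 to 43.9 and 44.8 RPKM (-0.92) and CDC25A, the phosphatase that activates CDK2, from 35.4 and 36.0 to 19.3 and 19.0 RPKM (-0.86). The only one with a log2 fold change above 0 was ASF1B, a histone chaperone gene (0.06, limma adjusted p = 0.258), which was called higher (0.12, adjusted p = 0.0392) when the samples were scaled to equal sums of RPKM. An E2F word stood in 34.0% of the 53 windows of 35 of these genes, against 7.33% of all windows.

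Genes of G2 and mitosis that DREAM represses and MuvB later activates were also lower. Of 20, 15 (75.0%) fell and 0 rose in limma, with a median log2 fold change of -0.44. In 18 of the 20 the groups were apart on the low side, against 35.8% of all genes. CKAP2 fell from 18.8 and 18.7 to 10.5 and 10.6 RPKM (-0.77), AURKA, a kinase that stabilises the MYCN protein, from 58.5 and 59.2 to 36.1 and 35.8 RPKM (-0.70), and HMMR from 10.1 and 9.52 to 5.56 and 5.88 RPKM (-0.68). Here 10% of the 20 windows of 17 genes held an E2F word, near the 7.33% of all windows. In both lists 0 genes were higher at an unadjusted p under 0.05 or with limma voom, and the background is the 22.8% of all genes called lower.

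Apoptosis genes that E2F1 can switch on changed in both directions. APAF1 (0.51) and BBC3 (0.66, limma adjusted p = 0.04997) rose, while PMAIP1 (-0.77), CDKN2A (-0.53) and BCL2L11 (-0.44) fell. TP73 lay below the filter at 0.776 to 1.07 RPKM. Germline genes that E2F6 keeps silent in other tissues were low in all samples. SLC25A31, MAEL, DDX4 and SYCP1 were listed at 0 in every sample, STAG3 at 0.0266 to 0.149 RPKM and SMC1B at 0.0221 to 0.0912 RPKM. SYCE2 stood at 1.22 and 1.71 RPKM in Ctrl against 1.77 and 1.28 RPKM in MYCN KD (log2 fold change 0.03, limma adjusted p = 0.869).

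**Figure D5:**
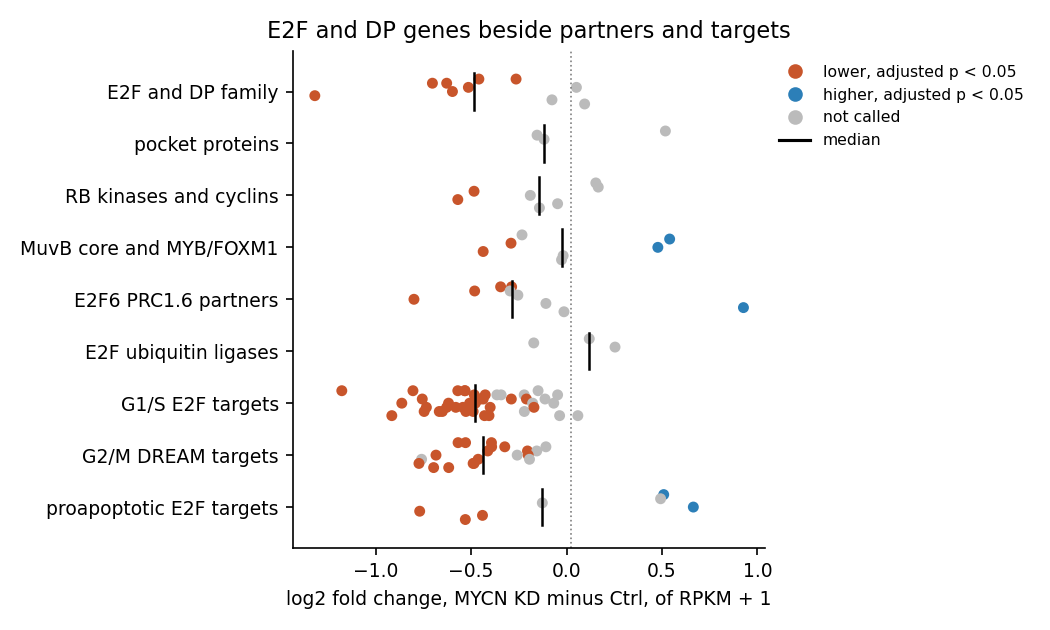
Log2 fold change of RPKM + 1 between MYCN KD and Ctrl for each tested gene of the family and of the lists of its regulators, partners and targets, with the median of each list (black line) and of all genes tested (dotted line). The family (-0.49), the G1/S targets (-0.48) and the G2/M genes (-0.44) have medians well to the left of the dotted line at 0.03. The other lists have genes on both sides, and among them the E2F6 partners lean to the left (median -0.29, 8 of 9 tested below 0).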

How the data were processed

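RNA-seq of 2 Ctrl and 2 MYCN KD samples was analysed, grouped by sample titles and genotype labels. Reads had been mapped to hg19 by the authors (HISAT2 2.1.0 in the submitters' processing notes) and counted per RefSeq gene (featureCounts), with DESeq2 as the model and RUVSeq against unwanted variation. The authors deposited RPKM computed from those normalized counts. No earlier step was repeated, and RUVSeq may have changed the spread between replicates.

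Here log2(RPKM + 1) was fitted in limma 3.58.1 (R 4.3.3; lmFit, eBayes with a trend, no block) over all 11411 genes whose mean RPKM was 1 or more, two-sided, and p-values were adjusted by Benjamini-Hochberg over these genes (threshold 0.05). This scale understates changes of low genes. The labels number the samples as replicates, and p-values measure the spread between these samples. With 2 against 2, an exact permutation test cannot go below 0.3333. The fit was also run on simulated counts, drawn independently for each sample and without RUVSeq. That run cannot show how the p-values behave on the deposited values.

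Whole reads behind RPKM were recovered from small RNA genes of known length (93.57% to 94.29% whole within 0.001 reads) and then, as the fewest that fit within 0.002 reads, for all 19908 genes above 0. Since RPKM came from RUVSeq-normalized counts, the recovered reads are counts after that normalization and not raw reads, also where limma voom used them. Symbols in 28 rows had turned into dates. The members and lists were chosen with earlier results of these data known. Named were all members, MYCN, all genes of lists of up to 10, of longer lists the 3 largest falls and rises past the threshold, and the 3 genes most like E2F5. ASF1B was named after its values were seen. Some listed genes are not reported here. Alternatives were another pseudocount, other filters, 2 scalings, eBayes without a trend, limma voom on recovered reads, a block on the replicate number and each sample left out. Positions are from GENCODE release 44 lifted to GRCh37, the build the authors used, and promoter sequences from RefSeq. Figures and tables were made with matplotlib 3.10.9, scipy 1.17.1, pandas 2.3.3 and numpy 2.4.6 in Python 3.11.15. The ChIP-seq and MNase-seq data of the study were not used here.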

Additional observations from a re-analysis of the deposited data

How the results depend on the processing

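E2F2, E2F4, E2F5, E2F8, TFDP1 and MYCN were past the threshold in the same direction under the alternatives run wherever they were tested (E2F8 was below the stricter filter, a mean of 5 RPKM). E2F3 lost its call when samples were scaled to equal sums of RPKM (-0.46) and without a filter on low values (-0.51), and E2F1 without Ctrl replicate 1 or MYCN KD replicate 1, with values from -0.30 to -0.22 over the 4 fits that left out a sample. In those fits the lone sample is assumed to vary like the other group. TFDP2, never called, changed sign with quantile normalization (-0.0094), without Ctrl replicate 1 (-0.0245) and without MYCN KD replicate 1 (-0.022), and reached 0.13 with another sample left out. The change of the activators minus the repressors was 0.050 with quantile normalization, 0.044 with limma voom and 0.040 with a pseudocount of 0.1, against 0.0026, and ran from -0.029 to 0.034 with a sample left out. Scaled to equal sums of RPKM, 24 G1/S targets and 13 G2/M genes were called lower, against 30 and 15. Over all genes 2120 were then lower, against 2599, and 1 G1/S target, ASF1B, was called higher. Without a filter on low values 26 and 12 were lower (2594 of all genes), and with quantile normalization 32 and 13 (3000 of all genes).

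With a replicate block on the labels' numbers, 6 members were lower, against 7, since E2F1 missed the threshold (-0.26, limma adjusted p = 0.124), and 2077 genes were higher and 1851 lower, against 2890 and 2599. Same-numbered samples deviated in opposite directions (correlation of deviations -0.985 over 11411 genes), and the numbers were therefore not used as pairs. The part of RUVSeq in this was not tested. Crossed numbers as a replicate block, chosen after seeing the data, gave 5910 genes higher and 5262 lower. Under the stricter filter 1868 genes were higher and 2106 lower, with fewer genes tested. The other causes were not tested. Counting error limits E2F5 most among the members, since its lowest sample had 81 normalized reads at the fewest that fit.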

Other observations

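Across the 11411 genes tested, the deviations of replicate 1 in Ctrl and in MYCN KD were inversely correlated (-0.985), and the members shared this pattern. In 9 of the 10 members, the sign of the log2 difference between replicate 2 and replicate 1 was opposite in the 2 groups. E2F1, E2F2, E2F4 and E2F8 were higher in Ctrl replicate 1 and MYCN KD replicate 2, and E2F3, E2F5, E2F6, E2F7 and TFDP2 were higher in Ctrl replicate 2 and MYCN KD replicate 1. The differences were close in size for most, for E2F3 0.25 in Ctrl and -0.23 in MYCN KD, for E2F7 0.16 and -0.16, and for E2F1 -0.08 and 0.08, and less so for E2F5 (0.23 and -0.18). TFDP1, the exception in sign, differed by 0.0008 and 0.0020. The values had been through RUVSeq before deposit, and its part in these differences was not tested.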
